A study of Mus musculus with 16 samples.

Results

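The genes of the mitochondrial respiratory chain and ATP synthase were followed in mouse tumors that arose after reprogramming factors had been switched on and off again in the living animal. The members were all genes whose single annotated symbol starts with Nduf, Uqcr, Cox4 to Cox8 or Atp5, together with Sdha, Sdhb, Sdhc and Sdhd. This gave 89 of the 19938 genes measured with a single symbol, each read on the probe set with the highest mean. By complex these were 36 complex I genes, 7 Ndufaf assembly factors of complex I, 4 genes of complex II, 8 of complex III, 17 of complex IV and 17 of complex V. Ndufa4 was kept with complex I by its symbol, although its product is now assigned to cytochrome c oxidase. All 89 were tested, with no filter on dim genes.

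Total RNA was measured on 16 arrays, 1 per sample. Reprogrammable mice received doxycycline for 7 days, starting at 4 weeks of age, and kidney tumors were collected once 7 further days had passed without it. There were 3 arrays each of kidney tumor, normal kidney of the same age, liver tumor, normal liver and secondary kidney tumor, meaning kidney tumor transplanted under the skin of immunodeficient mice, and 1 array of ES cells. The ES cells were 129xC57BL6 F1, and the tissues had that background or a mixed one of 129 and C57BL6. The tumors came from chimeric mice made with the ES line, so per the labels they can also hold cells of the ICR host. For the liver samples and the transplant hosts no age is given in the sources used here, nor are the transgene's promoter and the treatment of the normal tissues. Nothing says that replicates came from separate animals, so the p-values rest on array-to-array spread alone, part of which may be technical.

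Oxidative phosphorylation is carried out in the inner mitochondrial membrane. Complex I takes electrons from NADH and complex II from succinate, ubiquinone carries them to complex III, and cytochrome c carries them on to complex IV, where oxygen is reduced. Complexes I, III and IV pump protons, and complex V, the ATP synthase, uses the returning protons to make ATP. Most subunits are encoded in the nucleus, and a few core ones in mitochondrial DNA. Proximal tubule cells of the kidney and hepatocytes are rich in mitochondria. NRF1, the ETS factor GABP and YY1 are transcription factors long associated with promoters of nuclear respiratory genes.

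Part of these genes held, near their start, at least 1 of 3 motifs, which the choice by symbol did not use. Windows from 250 bases before to 50 bases after the annotated start were matched by gene identifier for 73 of the 89 members in the RefSeq promoter table of build GRCm38.p6. The NRF1 motif (GCGCA, any base, then GCGC) was present on either strand in 18 of the 73 (24.7%), beside 5.19% of all 27025 genes in the table and 7.87% of the 15563 that were also measured here. The ETS motif CCGGAAG stood in 18 members (24.7%), beside 9.93% of all genes and 13.6% of the measured ones. The YY1 motif AAGATGGC stood in 10 (13.7%), beside 3.19% and 3.77%. At least 1 of the 3 was found in 40 members (54.8%), beside 22.3% of the measured genes. A match is a description of the letters and not evidence of binding. The 6 windows that follow are printed 5′ to 3′ on the gene's strand, motif letters in capitals, chosen after the values were seen to show 1 member per complex with a motif and 1 without. Ndufs7 (chr10:80249199-80249498, plus strand) encodes an iron-sulfur subunit of complex I and holds the YY1 motif just after its start. Sdhb (chr4:140961021-140961320, plus strand) encodes the iron-sulfur subunit of complex II and holds the ETS motif. Uqcrc1 (chr9:108936398-108936697, plus strand) encodes a core protein of complex III and holds the NRF1 motif more than once after its start. Cox6a1 (chr5:115348909-115349208, minus strand) encodes the widely expressed form of a complex IV subunit and holds the NRF1 motif more than once and the ETS motif, read on the other strand, near its start. Atp5g2 (chr15:102670998-102671297, minus strand) encodes subunit c of ATP synthase and was among the few members that no tumor comparison called. Cox8b (chr7:140900397-140900696, minus strand), a complex IV form known from brown fat and muscle, holds none of the 3.
Ndufs7: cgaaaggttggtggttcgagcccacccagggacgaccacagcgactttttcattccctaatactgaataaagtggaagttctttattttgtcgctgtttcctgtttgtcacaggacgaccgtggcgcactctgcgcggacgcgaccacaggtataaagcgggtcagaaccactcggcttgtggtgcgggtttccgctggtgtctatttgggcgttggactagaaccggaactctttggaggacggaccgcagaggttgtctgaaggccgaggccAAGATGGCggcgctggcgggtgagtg
Sdhb: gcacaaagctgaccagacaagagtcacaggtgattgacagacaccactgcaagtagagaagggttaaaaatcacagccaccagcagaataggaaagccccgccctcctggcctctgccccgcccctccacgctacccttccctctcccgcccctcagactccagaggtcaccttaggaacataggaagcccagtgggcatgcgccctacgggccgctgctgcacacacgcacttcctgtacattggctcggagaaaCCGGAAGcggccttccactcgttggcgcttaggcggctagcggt
Uqcrc1: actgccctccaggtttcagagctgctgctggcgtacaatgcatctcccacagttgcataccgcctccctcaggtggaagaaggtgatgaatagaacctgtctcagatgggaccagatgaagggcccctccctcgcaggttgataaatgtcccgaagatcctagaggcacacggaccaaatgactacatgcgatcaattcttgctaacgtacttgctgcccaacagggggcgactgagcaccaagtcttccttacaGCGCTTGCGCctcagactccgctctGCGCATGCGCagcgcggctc
Cox6a1: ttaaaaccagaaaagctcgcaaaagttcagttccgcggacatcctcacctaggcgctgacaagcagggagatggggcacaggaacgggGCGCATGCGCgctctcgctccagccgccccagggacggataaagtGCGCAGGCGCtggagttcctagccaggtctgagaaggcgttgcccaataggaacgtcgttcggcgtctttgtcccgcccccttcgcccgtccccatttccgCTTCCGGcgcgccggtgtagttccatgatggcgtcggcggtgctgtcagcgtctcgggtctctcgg
Atp5g2: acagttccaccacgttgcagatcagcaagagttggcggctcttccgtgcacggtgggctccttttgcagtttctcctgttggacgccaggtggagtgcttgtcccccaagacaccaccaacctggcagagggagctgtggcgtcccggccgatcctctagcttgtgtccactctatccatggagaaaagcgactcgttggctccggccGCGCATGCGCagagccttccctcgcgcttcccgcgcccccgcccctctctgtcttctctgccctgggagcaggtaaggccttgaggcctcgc
Cox8b: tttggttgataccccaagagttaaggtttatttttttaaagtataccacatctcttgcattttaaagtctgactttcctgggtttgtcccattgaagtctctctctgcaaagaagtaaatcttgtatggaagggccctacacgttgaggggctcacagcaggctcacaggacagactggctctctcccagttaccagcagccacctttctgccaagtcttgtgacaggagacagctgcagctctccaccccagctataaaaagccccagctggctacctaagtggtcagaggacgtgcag

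Among the 73 members with a window, medians were close with and without a motif in 2 of 3 comparisons. The median log2 change was -0.74 over 40 members with a motif and -0.77 over 33 without in kidney tumor against normal kidney. In secondary tumor against normal kidney the medians were -1.02 and -0.79, and in liver tumor against normal liver -0.71 and -0.65.

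Transcripts of all 5 complexes were lower in the tumors of both organs. Calls were made by limma's moderated test, with Benjamini-Hochberg adjustment across the 19938 genes and a threshold of 0.05. In kidney tumors 82 of the 89 members fell against normal kidney and 0 rose, while 28.1% of all genes were called lower and 21.7% higher. The median log2 change over the members was -0.74, which is 59.8% of the normal level, beside a median of -0.11 over all genes. In secondary kidney tumors 81 fell against the same normal kidney arrays and 0 rose, with a median of -0.96 (51.2%), beside 38.7% of all genes lower, 29.9% higher and an all-gene median of -0.12. In liver tumors 80 fell against normal liver and 0 rose, with a median of -0.66 (63.1%), beside 30.7% lower, 21.5% higher and an all-gene median of -0.13.

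Largely the same members were called lower in both organs, which such high call rates make likely by themselves. Of the 82 members lower in kidney tumor and the 80 lower in liver tumor, 79 were lower in both, which is 96.3% of the first list and 98.8% of the second. For all genes, which were called lower far less often, these shares were 58.4% and 53.5%, so the sets are not on a like footing. The overlap therefore does not show that the organs agree beyond the call rates. The same 79 members were lower in all 3 comparisons of a tumor group with its normal tissue (88.8% of members, beside 14.3% of all genes). The comparisons of kidney tumor and of secondary tumor share the normal kidney arrays, and the limit set by the call rates holds here too. The 10 members that were not lower in all 3 were Ndufa4l2, Ndufaf5, Cox4i2, Cox6a2, Cox6b2, Cox7a2l, Cox7b2, Cox8b, Cox8c and Atp5g2, and 7 of these belong to complex IV.

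The deposited values carry a downward shift of the typical gene in tumors, so the split of calls depends on centring. With each array centred on its own median, the share of called genes that were higher dropped from 43.6% to 30.3% in kidney tumor, from 43.6% to 30.6% in secondary tumor, from 51.5% to 36.9% in secondary against primary tumor and from 41.2% to 29.3% in liver tumor. The all-gene medians then stood at -0.22, -0.33, -0.16 and -0.24 in the same order. The members' medians were -0.86, -1.17, -0.31 and -0.77, with 82, 84, 46 and 83 called lower and 0, 0, 1 and 0 higher. Of all genes, 42.8%, 53.6%, 27.6% and 44% were called lower after centring. Without centring these shares were 28.1%, 38.7%, 17.4% and 30.7%, so the count for all genes rose as well.

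Array by array, the members' median log2 difference from the mean of normal kidney separated every tumor array from every normal one. It was -0.68, -0.70 and -0.79 in kidney tumors 1 to 3, -0.98, -0.95 and -0.96 in secondary tumors, and -0.86, -0.93 and -0.94 in liver tumors. Normal liver arrays were at -0.28, -0.30 and -0.16, and the ES cell array was at -0.62. The order from high to low was thus normal kidney, normal liver, ES cells, kidney tumor, liver tumor and secondary kidney tumor. The means of the last 2 groups, -0.91 and -0.96, lay close, and the lowest liver tumor (-0.94) almost met the highest secondary tumor (-0.95).

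**Figure D1:**
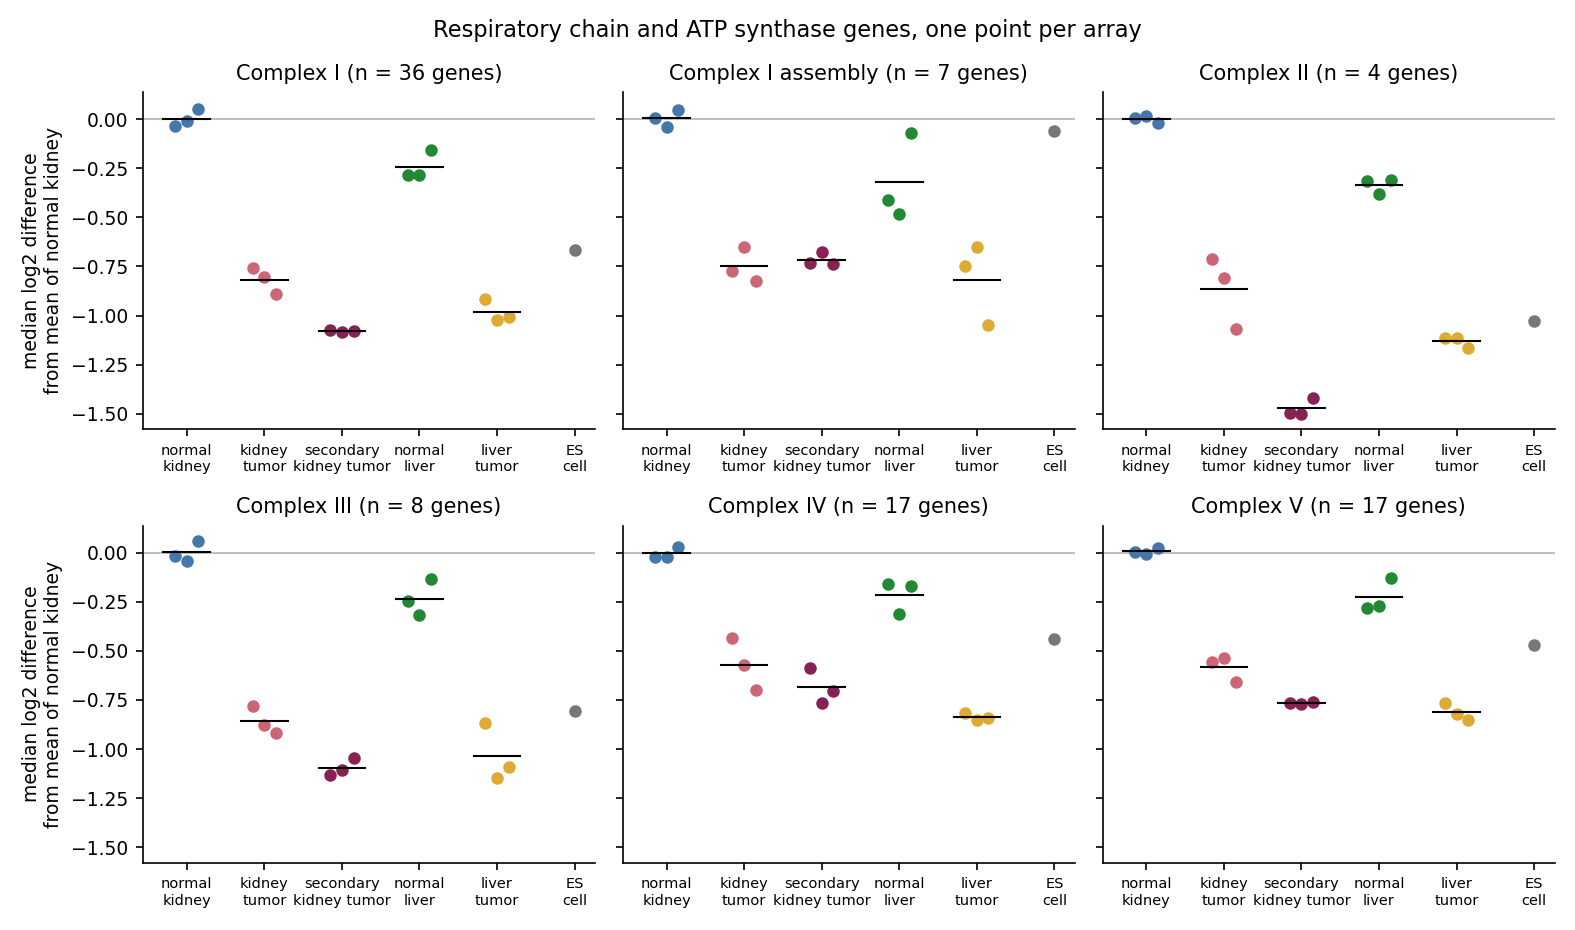
Median log2 difference of the genes of each complex from the mean of normal kidney, 1 point per array, in 6 groups, with a line at the mean of each group of 3. Complex II was lowest in secondary kidney tumors, near -1.47, and the complex I assembly factors of the ES cell array were near 0, at -0.06.

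Several cell type markers moved with these groups, and their part in the results was not tested. In bulk tissue, fewer cells of a type and less RNA per cell cannot be told apart. The summed intensity of 10 proximal tubule markers was 88515 to 93793 in normal kidney, 23288 to 40519 in kidney tumors and 1738 to 2276 in secondary tumors, the last near the 1684 of ES cells. The 7 markers of the loop and distal tubule summed to 32491 to 36129, 9782 to 20514 and 695 to 1945 in the same groups. Hepatocyte markers, of which 9 of 10 were measured, summed to 102233 to 103202 in normal liver and 60947 to 89375 in liver tumors. Myeloid markers summed to 2232 to 2859 in normal kidney, 7359 to 8781 in kidney tumors, 3409 to 3946 in normal liver and 6955 to 10423 in liver tumors. All 6 fibroblast markers rose in secondary tumors, with a median log2 change of 2.75. Fat markers stood out in 3 arrays, with Adipoq at 9.98 in normal kidney 2, 10.38 in normal liver 1 and 9.87 in secondary tumor 1, against at most 6.16 in any other array. Normal liver 1 also carried brown fat markers, with Ucp1 at 10.78, and secondary tumor 1 carried skeletal muscle markers, with Acta1 at 12.65. The 10 striated muscle and heart markers summed to 1441 to 1665 in normal kidney, 2608 to 4815 in kidney tumors, 1974 to 23971 in secondary tumors, 1699 to 1845 in normal liver and 1855 to 10332 in liver tumors. Among them Actc1, cardiac actin, rose by 3.33 ± 0.96 in kidney tumor (limma adjusted p = 0.011) and by 3.40 ± 0.96 in liver tumor (adjusted p = 0.010). Over the 10 markers the median log2 change was only 0.11 in kidney tumor and -0.06 in liver tumor. Of these 10, 2 and 1 were called higher and 0 lower, beside 21.7% and 21.5% of all genes higher. The normal liver arrays held graded kidney signal, with Slc34a1, a phosphate carrier of the proximal tubule, at 11.29, 9.54 and 7.75. Xist, expressed from an inactive X chromosome, was above 10 in kidney tumors 2 and 3 and liver tumors 2 and 3 and at most 7.84 elsewhere.

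Complex I fell almost as a whole. In kidney tumors 35 of its 36 genes fell, with a median of -0.81, and in secondary tumors 35 fell, with a median of -1.07. In liver tumors 35 fell, with a median of -0.73. The single member not called in any of these was Ndufa4l2, a paralogue of Ndufa4 known to respond to hypoxia. Like Ndufa4, it was placed in complex I by its symbol alone. Its levels were 7.37 to 7.83 in normal kidney, 7.55 to 8.12 in kidney tumor and 7.22 to 7.90 in secondary tumor, and they overlapped throughout.

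Ndufs1 encodes the large iron-sulfur subunit through which electrons pass from the NADH site. Its log2 intensity was 11.62, 11.39 and 11.55 in normal kidney, 10.35, 10.46 and 10.22 in kidney tumors and 9.79, 9.79 and 9.85 in secondary tumors. The 3 groups did not overlap. The change was -1.18 ± 0.12 (SE) in kidney tumor (limma adjusted p = 7.0e-06) and -1.71 ± 0.12 in secondary tumor (adjusted p = 9.6e-08). In liver it went from 10.98, 10.84 and 11.05 to between 9.91 and 10.44 in the 3 tumors, a change of -0.84 ± 0.12 (adjusted p = 1.4e-04).

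Ndufv1 encodes the flavoprotein that binds NADH. It stood at 12.14, 12.11 and 12.22 in normal kidney, 11.39, 10.94 and 10.96 in kidney tumors and 10.41, 10.52 and 10.44 in secondary tumors, again without overlap. The log2 change was -1.06 ± 0.11 in kidney tumor, -1.70 ± 0.11 in secondary tumor and -0.93 ± 0.11 in liver tumor, where all 3 arrays (10.64 to 10.95) lay under normal liver (11.66 to 11.70). Ndufb10, an accessory subunit, had the largest fall of complex I in kidney tumors, from 9.25, 9.36 and 9.28 to 8.19, 8.07 and 8.04. That is a change of -1.20 ± 0.11 (adjusted p = 2.3e-06), and its change in liver tumor was -1.16 ± 0.11. Ndufa1, another accessory subunit, had the largest fall of complex I in liver tumors, by 1.19 ± 0.11, from 9.22 to 9.52 in normal liver to 8.01 to 8.29.

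The assembly factors of complex I, which help build the enzyme and are not part of it, fell too, with 7 of 7 called in kidney tumors (median -0.75) and 6 of 7 in each of secondary tumors (median -0.71) and liver tumors (median -0.49). Ndufaf5 was the member not called in the last 2, with changes of -0.11 and -0.17. Ndufaf3 fell most in kidney tumors, from 10.73, 10.57 and 10.78 to 9.74, 9.71 and 9.65, a change of -0.99 ± 0.09 (adjusted p = 2.7e-06). Its secondary tumor arrays were at 10.05, 10.01 and 10.19, between the other groups. Ndufaf6 fell most in secondary tumors, by 1.53 ± 0.12, and Ndufaf1 most in liver tumors, by 1.06 ± 0.16.

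Complex II, succinate dehydrogenase, links the tricarboxylic acid cycle to the chain and has all of its subunits encoded in the nucleus. All 4 genes fell in all 3 tumor groups, with medians of -0.86 in kidney tumor, -1.47 in secondary tumor and -0.81 in liver tumor. Sdhb, whose promoter is printed among the windows, was at 12.12, 12.14 and 12.19 in normal kidney, 10.98, 10.96 and 10.80 in kidney tumors and 10.63, 10.65 and 10.79 in secondary tumors. Normal kidney lay far above both tumor groups, and primary tumor 3 nearly met the secondary ones. The change was -1.24 ± 0.12 in kidney tumor (adjusted p = 2.8e-06) and -1.46 ± 0.12 in secondary tumor (adjusted p = 2.0e-07). In liver Sdhb went from 11.73, 11.64 and 11.79 to 10.94, 10.55 and 10.41, by -1.09 ± 0.12 (adjusted p = 1.1e-05).

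Sdha, the flavoprotein that oxidises succinate, was at 12.77, 12.58 and 12.49 in normal kidney, 11.92, 11.79 and 11.49 in kidney tumors and 11.15, 11.12 and 11.14 in secondary tumors. It fell by 0.88 ± 0.11 and by 1.48 ± 0.11. Sdhc and Sdhd, the membrane anchors, fell by 0.84 ± 0.09 and 0.80 ± 0.11 in kidney tumor and by 1.21 ± 0.09 and 1.57 ± 0.11 in secondary tumor. In liver tumor Sdha, Sdhc and Sdhd fell by 0.84 ± 0.11, 0.67 ± 0.09 and 0.78 ± 0.11.

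Complex III passes electrons from ubiquinol to cytochrome c. All 8 measured genes fell in each tumor group, with medians of -0.87 in kidney tumor, -1.09 in secondary tumor and -0.88 in liver tumor. Uqcrfs1 encodes the Rieske iron-sulfur protein. It was at 10.80, 10.79 and 10.87 in normal kidney, 9.78, 9.80 and 9.50 in kidney tumors and 8.98, 8.97 and 9.16 in secondary tumors. The groups did not overlap, and the change was -1.13 ± 0.11 in kidney tumor (adjusted p = 3.7e-06) and -1.78 ± 0.11 in secondary tumor (adjusted p = 2.3e-08).

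Uqcr10, a small subunit, had the largest fall of complex III in secondary tumors, from 11.00, 11.07 and 11.23 in normal kidney to 9.12, 9.20 and 9.29, a change of -1.90 ± 0.13 (adjusted p = 5.7e-08). Uqcr11, another small subunit, had the largest in liver tumors, from 11.63, 11.87 and 11.88 to 10.52, 10.53 and 10.41, a change of -1.30 ± 0.11 (adjusted p = 2.5e-06). The core protein gene Uqcrc1, which holds the NRF1 motif, fell by 0.80 ± 0.10, 0.98 ± 0.10 and 0.85 ± 0.10 in kidney, secondary and liver tumors. The smallest fall of the complex in kidney tumor was that of Uqcrb, by 0.49 ± 0.07, named after its value was seen.

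**Figure D2:**
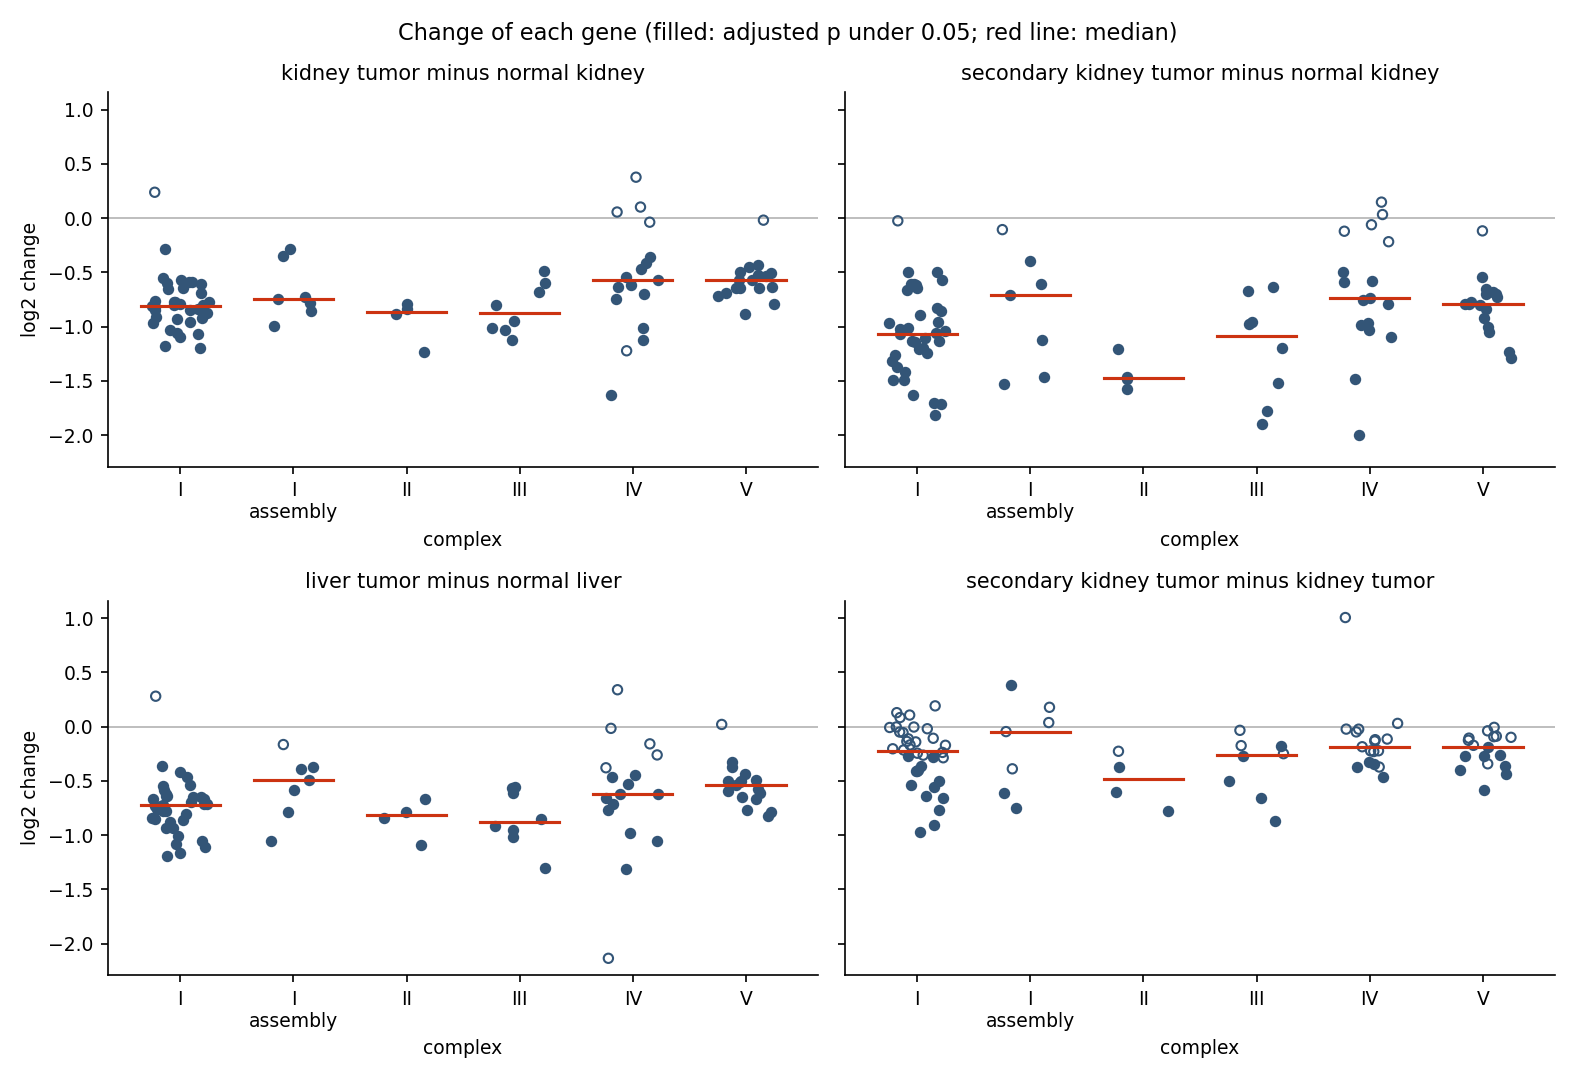
Log2 change of each of the 89 genes by complex in 4 comparisons, filled where limma's adjusted p was under 0.05, with a red line at each median. Complexes I to III and V lie almost wholly under 0 in the 3 comparisons with normal tissue, while complex IV holds several open points near 0.

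Complex IV, cytochrome c oxidase, was the most mixed, and several of its subunits are known in alternative tissue forms. Of 17 genes, 12 fell in kidney tumor (median -0.57), 12 in secondary tumor (median -0.73) and 11 in liver tumor (median -0.62), and 0 rose. The widely expressed subunits were lower in all 3. Cox4i1, a regulatory subunit, was at 11.92, 11.92 and 11.98 in normal kidney, 11.50, 11.38 and 11.23 in kidney tumors and 11.13, 11.19 and 11.23 in secondary tumors, and it fell by 0.57 ± 0.10 and by 0.76 ± 0.10. Cox5a fell by 0.64 ± 0.09, 0.99 ± 0.09 and 0.76 ± 0.09 in kidney, secondary and liver tumors. Cox6a1 fell further, from 12.86, 12.51 and 12.68 to 11.83, 11.74 and 11.44 in kidney tumors, by 1.01 ± 0.12 (adjusted p = 1.9e-05), and by 1.48 ± 0.12 in secondary tumor and 0.98 ± 0.12 in liver tumor. Cox6b1, Cox7a2, Cox7b and Cox8a fell by 0.61, 0.70, 0.54 and 0.74 in kidney tumor, each with an SE of at most 0.09.

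The alternative forms differed from these and from each other. Cox4i2, the lung and hypoxia form of subunit IV, was at 7.95, 7.54 and 7.80 in normal kidney and 8.35, 8.03 and 8.03 in kidney tumors, which lay above without overlap. Its change of 0.38 ± 0.18 did not pass (adjusted p = 0.093), nor did those of 0.15 ± 0.18 in secondary tumor and 0.34 ± 0.18 in liver tumor. Cox7a2l, which encodes a supercomplex assembly factor related to subunit VIIa, changed by 0.10 ± 0.14, -0.12 ± 0.14 and -0.02 ± 0.14 in the 3 tumor groups and passed in none. Its other, dimmer probe set gave -0.23, -0.24 and -0.12 in kidney, secondary and liver tumors, which was not tested. Cox7b2, a testis form, was at 5.41 to 5.69 on every array, near the low end of the scale, where a transcript cannot be told from background. Cox8c, also a testis form, fell by 0.36 ± 0.12 in kidney tumor and by 0.50 ± 0.12 in secondary tumor, and its change of -0.26 ± 0.12 in liver tumor did not pass. It was at 6.78 to 7.63 on every array, with its mean level at percentile 34.1 of all genes. At such low levels a fall of the transcript is hard to tell from a shift of background.

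Cox7a1, the form of subunit VIIa known from heart, skeletal muscle and brown fat, had the largest called fall of any member in kidney and in secondary tumors. It was at 10.22, 10.20 and 10.26 in normal kidney, 8.69, 8.56 and 8.53 in kidney tumors and 8.99, 8.02 and 7.66 in secondary tumors, and at 9.96 in ES cells. All tumor arrays lay below all normal kidney arrays. The change was -1.63 ± 0.50 (adjusted p = 0.017) and -2.00 ± 0.50 (adjusted p = 0.0036). In liver it was at 10.72, 8.32 and 8.64 in normal tissue and 7.72, 8.45 and 7.58 in tumors, a change of -1.31 ± 0.50 (adjusted p = 0.045). The high liver array is the one with brown fat markers, a list that itself holds Cox7a1. Without the 3 arrays with fat signal the changes were -1.64 ± 0.23 in kidney tumor, -2.40 ± 0.25 in secondary tumor and -0.56 ± 0.23 in liver tumor, and the last no longer passed (adjusted p = 0.072). Normal kidney then exceeded normal liver by 1.76 ± 0.25 (adjusted p = 5.4e-04), beside 1.00 ± 0.50 with all arrays (adjusted p = 0.14). Secondary against primary kidney tumor gave -0.37 ± 0.50 with all arrays (adjusted p = 0.59) and -0.75 ± 0.23 without the 3 (adjusted p = 0.034).

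Cox8b, the mouse brown fat and muscle form of subunit VIII, was high in just the 3 arrays with fat signal. It was at 6.84, 9.52 and 6.98 in normal kidney, 12.14, 7.11 and 7.05 in normal liver and 10.08, 6.29 and 6.32 in secondary tumors. All 6 primary tumor arrays and the ES cell array were at 6.34 to 6.85. Its changes of -1.22 ± 1.28, -0.22 ± 1.28 and -2.14 ± 1.28 in kidney, secondary and liver tumors did not pass in limma. Without those 3 arrays the change was -0.35 ± 0.13 in kidney tumor (adjusted p = 0.057), -0.61 ± 0.15 in secondary tumor (adjusted p = 0.0060) and -0.45 ± 0.13 in liver tumor (adjusted p = 0.023). The arrays that remain were all at 6.29 to 7.11, low levels at which a fall is hard to tell from a shift of background.

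Cox6a2, the heart and muscle form of subunit VIa, was at 8.25, 9.10 and 8.87 in normal kidney, 7.79, 7.32 and 7.73 in kidney tumors and 8.42, 7.17 and 7.35 in secondary tumors. Secondary tumor 1, the array with skeletal muscle signal, overlapped normal kidney and the other 2 did not. It fell by 1.13 ± 0.29 in kidney tumor (adjusted p = 0.0059) and by 1.10 ± 0.29 in secondary tumor (adjusted p = 0.0050), and its change of -0.38 ± 0.29 in liver tumor did not pass. Without the 3 arrays the kidney values were -0.95 ± 0.21 and -1.30 ± 0.23, and both passed.

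Cox6b2, known as the testis form of subunit VIb, was the single member whose tumor effect differed between organs. It was at 8.67, 8.71 and 8.89 in normal liver and 7.85, 7.52 and 7.74 in liver tumors, a fall of 1.05 ± 0.11 (adjusted p = 6.9e-06) with no overlap. In normal kidney it was at 7.92, 7.90 and 7.85, in kidney tumors at 7.91, 7.78 and 8.15 and in secondary tumors at 7.89, 7.96 and 7.92, which overlapped. The kidney changes of 0.06 ± 0.11 and 0.03 ± 0.11 did not pass. ES cells had the highest level, 10.39. Normal kidney minus normal liver gave -0.87 ± 0.11 (adjusted p = 2.2e-05), the only member called in that direction.

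**Figure D3:**
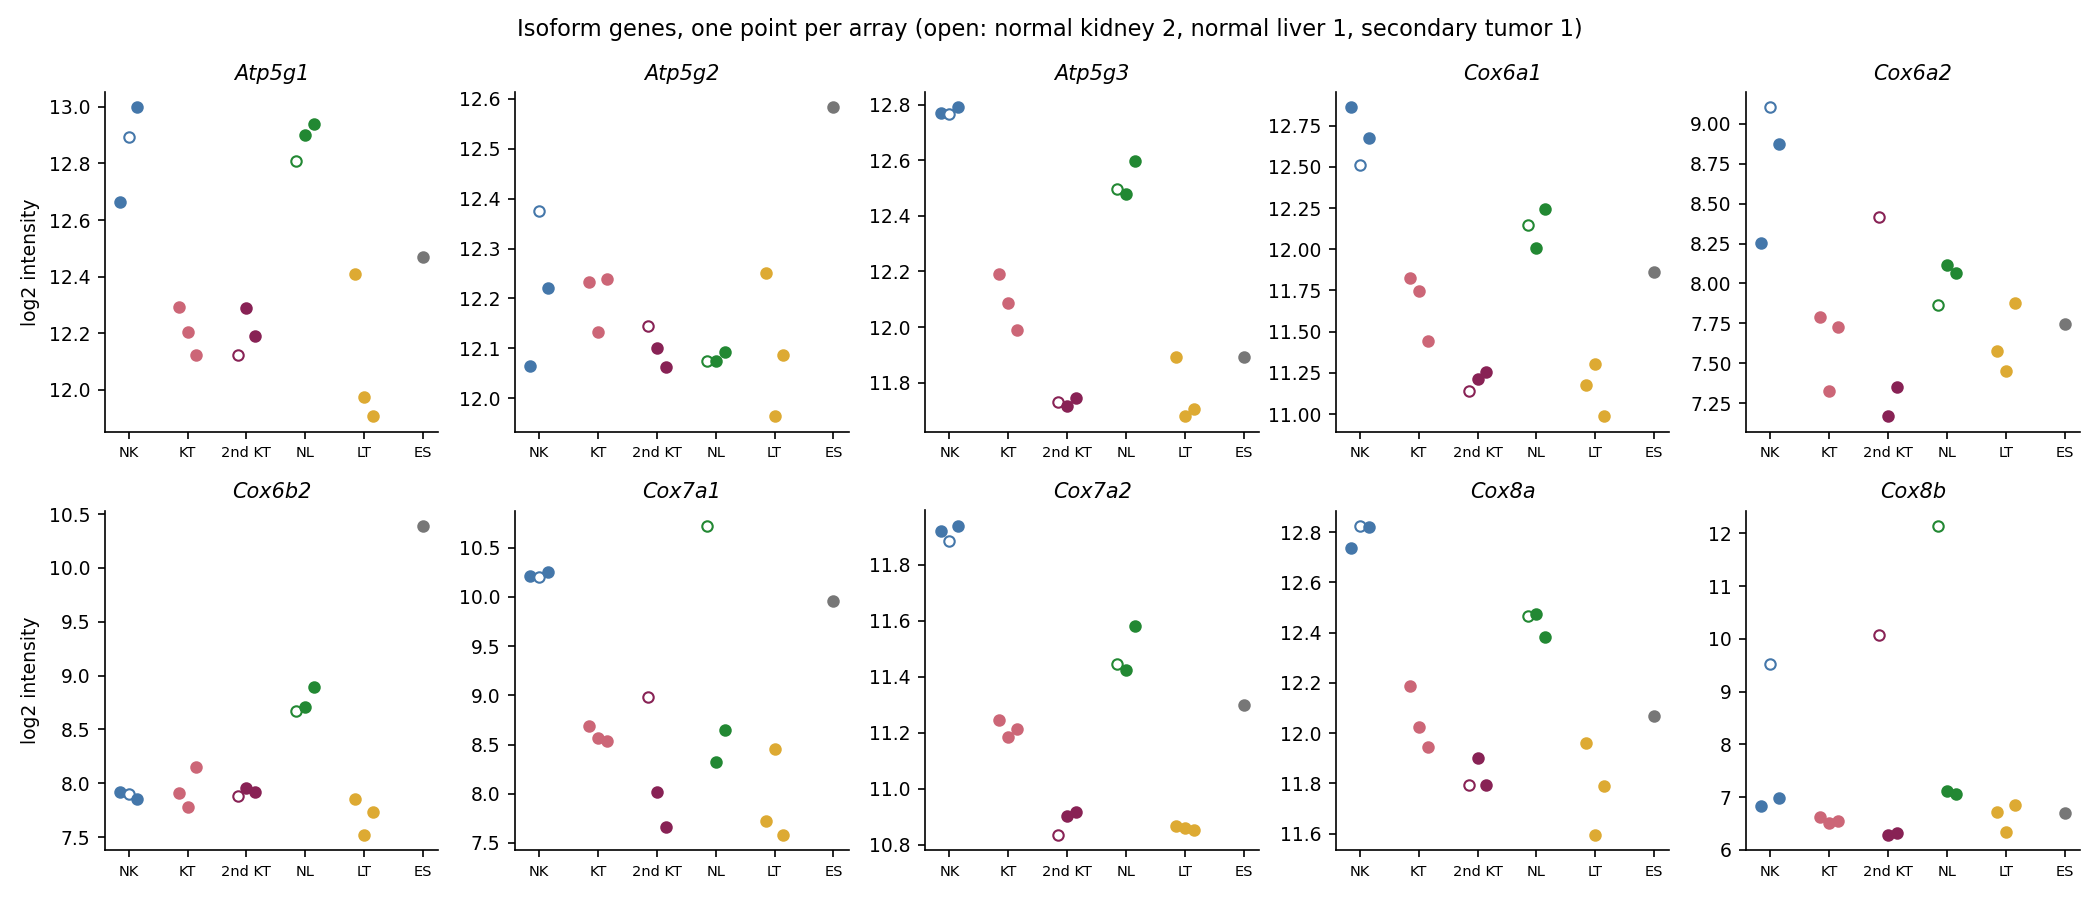
Log2 intensity of 10 genes with alternative forms, 1 point per array, in normal kidney (NK), kidney tumor (KT), secondary kidney tumor (2nd KT), normal liver (NL), liver tumor (LT) and ES cells (ES), each panel on its own scale. The open points, the 3 arrays with fat signal, hold the high values of Cox8b, from 9.52 to 12.14, and Atp5g2 stays between 11.96 and 12.38 in all tissues.

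Complex V fell by a little less than complexes I to III, with medians of -0.57 in kidney tumor, -0.79 in secondary tumor and -0.53 in liver tumor, and 16 of its 17 genes fell in each. Atp5a1 and Atp5b encode the alpha and beta subunits that form the catalytic head. Atp5b was at 13.62, 13.61 and 13.61 in normal kidney, 13.29, 13.17 and 13.08 in kidney tumors and 13.05, 13.11 and 13.06 in secondary tumors. Normal kidney did not overlap the tumors, which overlapped each other. It fell by 0.43 ± 0.06 (adjusted p = 1.1e-04) and by 0.54 ± 0.06 (adjusted p = 8.8e-06), and in liver tumor by 0.33 ± 0.06. Atp5a1 fell by 0.57 ± 0.08, 0.84 ± 0.08 and 0.50 ± 0.08 in kidney, secondary and liver tumors. The largest fall of the complex in kidney and secondary tumors was that of Atp5l, subunit g, by 0.89 ± 0.13 and 1.29 ± 0.13, and in liver tumors that of Atp5e, subunit epsilon, by 0.83 ± 0.13. Whether the difference between complexes exceeds chance was not tested.

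The 3 genes for subunit c, which make the same mature ring protein from different precursors, did not move alike. Atp5g1 was at 12.66, 12.89 and 13.00 in normal kidney and 12.29, 12.20 and 12.12 in kidney tumors, and it fell by 0.64 ± 0.12 (adjusted p = 8.0e-04). Atp5g3 was at 12.77, 12.77 and 12.79 in normal kidney, 12.19, 12.09 and 11.99 in kidney tumors and 11.73, 11.72 and 11.74 in secondary tumors, and it fell by 0.69 ± 0.08 and 1.05 ± 0.08. Atp5g2 was at 12.06, 12.38 and 12.22 in normal kidney, 12.23, 12.13 and 12.24 in kidney tumors and 12.14, 12.10 and 12.06 in secondary tumors, and the groups overlapped. Its changes were -0.02 ± 0.09 in kidney tumor, -0.12 ± 0.09 in secondary tumor and 0.02 ± 0.09 in liver tumor, and none passed (adjusted p = 0.87, 0.25 and 0.86). Its 3 probe sets gave -0.02, 0.02 and 0.01 in kidney tumor. In liver tumor Atp5g1 and Atp5g3 fell by 0.79 ± 0.12 and 0.77 ± 0.08. ES cells had 12.58 of Atp5g2, above all 15 tissue arrays. The differences among the 3 genes within a comparison were not tested.

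Secondary tumors were lower again than primary kidney tumors in part of the members. Of 89, 36 were lower and 1 higher, with a median of -0.22, beside 17.4% of all genes lower, 18.5% higher and an all-gene median of -0.07. The split ran through the complexes. In complex I, 14 of 36 fell further, and the quartiles of its changes ran from -0.41 to -0.05. Complex II had 3 of 4 lower (median -0.48), complex III 5 of 8 (-0.26), complex IV 4 of 17 (-0.19), complex V 8 of 17 (-0.19) and the assembly factors 2 of 7 (-0.05).

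Ndufa4 had the largest further fall, from 11.23, 11.20 and 11.08 in kidney tumors to 10.20, 10.12 and 10.29, by 0.97 ± 0.08 (adjusted p = 8.1e-07), after 12.00, 11.98 and 12.06 in normal kidney. Ndufa6 went from 10.68, 10.32 and 10.27 to 9.54, 9.53 and 9.49, by -0.90 ± 0.11 (adjusted p = 3.3e-05). Both genes were separated without overlap. Uqcr10 of complex III, Sdhd of complex II and Ndufaf6 fell further by 0.87 ± 0.13, 0.78 ± 0.11 and 0.75 ± 0.12. In complexes IV and V, with all arrays, the largest further falls that passed were those of Cox6a1, by 0.47 ± 0.12, and Atp5mpl, a small membrane subunit, by 0.59 ± 0.09. Without the 3 arrays with fat signal, Cox7a1 of complex IV also passed, with a further change of -0.75 ± 0.23.

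Other members of the same complexes were level between the 2 tumor groups. These examples were chosen after their values were seen. Ndufs7, with the YY1 motif in its promoter, was at 12.03, 11.89 and 11.81 in primary and 11.88, 11.89 and 11.91 in secondary tumors, which overlapped, a change of -0.02 ± 0.08. Ndufb7 was at 9.63 to 9.65 in primary and 9.57 to 9.71 in secondary tumors, and Ndufs8 differed by 0.08 ± 0.08, with neither called. Ndufaf3 was the member that rose, by 0.38 ± 0.09 (adjusted p = 0.0055), from 9.65 to 9.74 in primary to 10.01 to 10.19 in secondary tumors. Without kidney tumors 2 and 3, which carried Xist signal, Ndufaf3 differed by 0.34 and did not pass (adjusted p = 0.095), and the members' median was -0.29. That fit keeps 1 primary kidney tumor array, which is assumed to vary like the other groups.

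**Figure D4:**
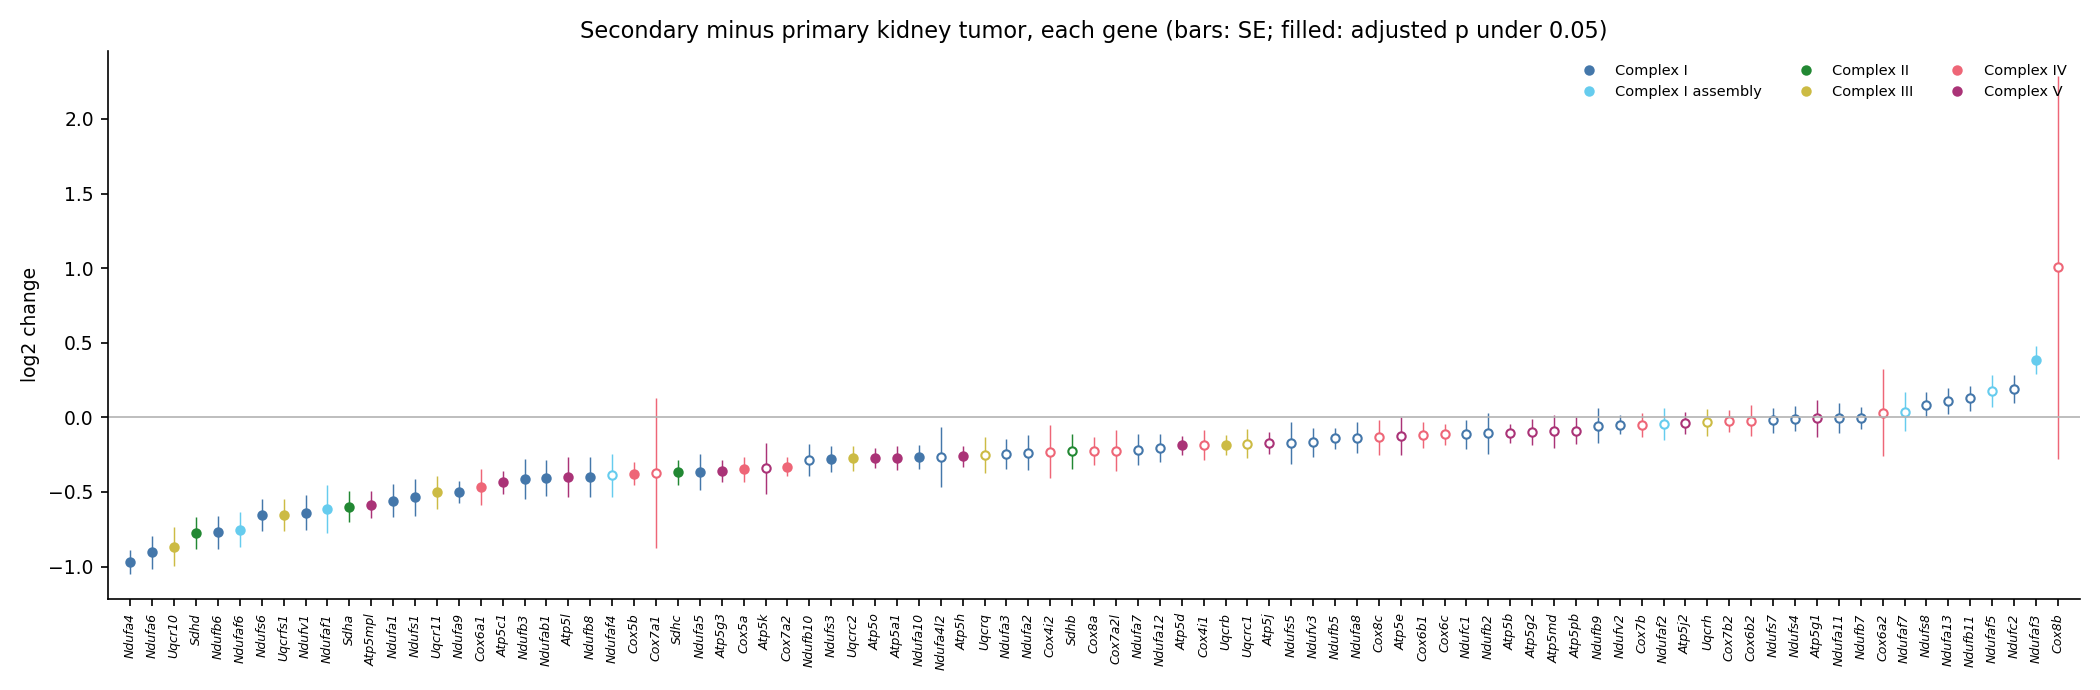
Log2 change of each of the 89 genes from primary to secondary kidney tumor, sorted, with SE bars, filled where limma's adjusted p was under 0.05 and coloured by complex. Genes placed in complex I by their symbol span from Ndufa4 at -0.97 to Ndufc2 at 0.19.

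The falls in kidney and liver tumors were close in size member by member. These comparisons share no arrays. Across the 89 members the 2 changes had Pearson's r of 0.78 and Spearman's rho of 0.77. Without Cox7a1, Cox8b and Cox6b2 they were 0.87 and 0.80 over 86. Those left out include Cox6b2, the member called different between organs. Leaving it out favours agreement, so the higher values are no support for it. Over all 19938 genes the correlations were 0.68 and 0.66. These are descriptions across genes, which are not independent replicates and share the arrays they were read on. The difference between the organs' effects was called in 0 members lower and 1 higher, beside 9.26% and 7.54% of all genes, with a median of -0.04. Its median size was 0.10, and 73 of 89 members were under 0.2. The 95% interval of a member's difference reached a median of 0.30 to either side, so smaller differences are not settled. Unadjusted, 5 of 89 had p under 0.05 in limma. The called member was Cox6b2, with a kidney minus liver effect of 1.11 ± 0.15 (adjusted p = 3.5e-04).

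**Figure D5:**
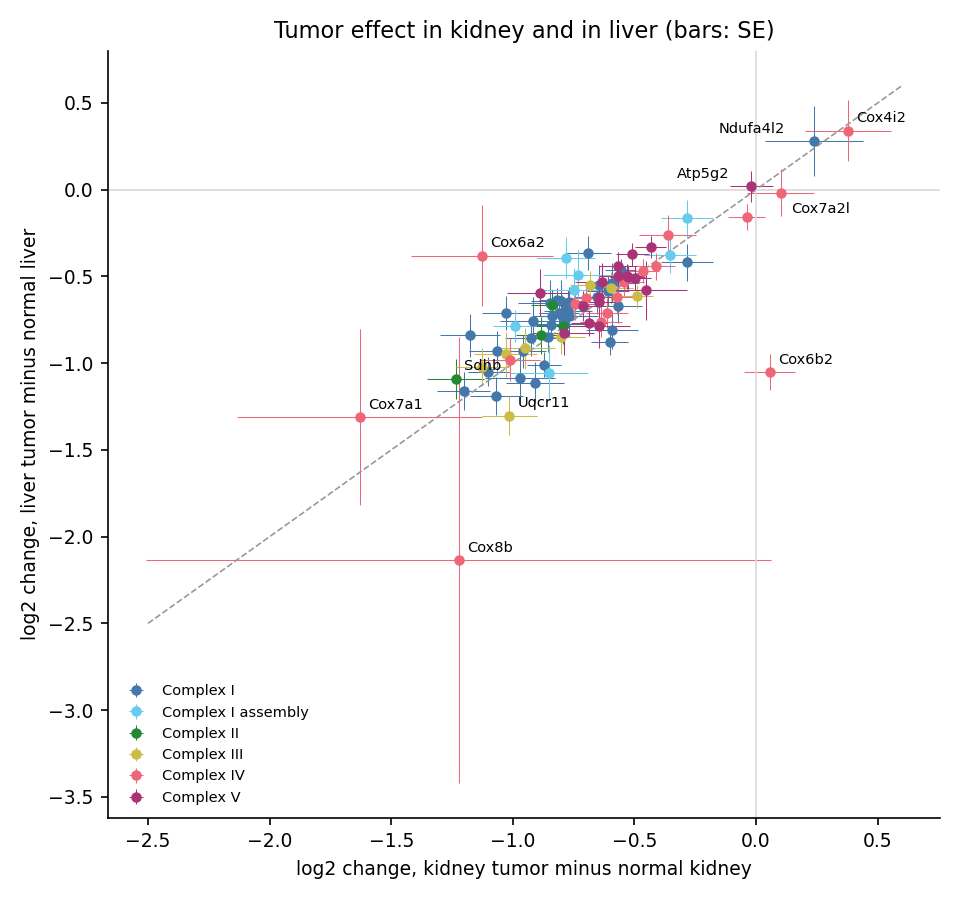
Log2 change in liver tumor (vertical) against that in kidney tumor (horizontal) for the 89 genes, with SE bars and a dashed line of equal change. For 73 of the 89 genes the 2 changes differ by under 0.2, and Cox6b2 lies apart, at 0.06 in kidney and -1.05 in liver.

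Normal kidney held more of these transcripts than normal liver. In that comparison 40 of 89 members were higher and 1 lower, with a median of 0.25, beside 21.4% of all genes higher, 16.4% lower and an all-gene median of -0.04. Medians ran from 0.18 in complex IV to 0.34 in complex II. Ndufb8, an accessory subunit of complex I, was at 11.43, 11.31 and 11.78 in kidney and 10.76, 10.73 and 10.88 in liver, a difference of 0.71 ± 0.14 (adjusted p = 9.7e-04). Sdhc differed by 0.46 ± 0.09, Uqcr10 by 0.39 ± 0.13, Cox6a1 by 0.55 ± 0.12, Atp5l by 0.50 ± 0.13 and Ndufaf6 by 0.44 ± 0.12, all higher in kidney. The count depends on single arrays. It was 14 without the 3 arrays with fat signal, 24 without normal kidney 3 and 25 without normal liver 2. The shares of all genes called in those fits are not given here, so these counts cannot be set beside the 21.4%. The graded kidney signal in normal liver 1 and 2 stands beside this comparison, and its part was not tested.

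Between the primary tumors of the 2 organs, 18 members were higher in kidney tumor and 0 lower, with a median of 0.19, beside 7.06% of all genes higher, 5.9% lower and an all-gene median of 0.03. Ndufb8 differed by 0.55 ± 0.14 (adjusted p = 0.016), Ndufa1 by 0.52 ± 0.11 (adjusted p = 0.0063) and Cox6a1 by 0.52 ± 0.12 (adjusted p = 0.013). The count was 0 in a fit of these 2 groups alone, 30 with array weights, 11 without kidney tumors 2 and 3 and 7 without liver tumors 2 and 3. Each of the last 2 fits keeps 1 array of a tumor group and takes its spread from the other groups. Leaving out kidney tumor 1, kidney tumor 2 or liver tumor 3 alone gave 11, 8 and 9. The shares of all genes called in these alternative fits are not given here.

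Set beside the single ES cell array, with no test, kidney tumors came closest in level. All 3 arrays were above ES cells in 78 of 89 members in normal kidney and 73 in normal liver. In kidney tumors 16 members were above and 46 below, in secondary tumors 6 and 77, and in liver tumors 3 and 63. The same counts were not made over all genes, so they do not show whether the members differ from other genes here. The median difference from ES cells was 0.62 in normal kidney, 0.34 in normal liver, -0.10 in kidney tumor, -0.29 in liver tumor and -0.32 in secondary tumor. The median of the complex I assembly factors departed from the rest, at -0.06 in ES cells against normal kidney, but its genes were mixed. In ES cells Ndufaf1, Ndufaf2 and Ndufaf5 were above all normal kidney arrays, and Ndufaf3, Ndufaf4, Ndufaf6 and Ndufaf7 were below them. Ndufaf1 was at 10.75 in ES cells, 10.38 to 10.54 in normal kidney and 9.56 to 9.75 in kidney tumors. Ndufaf4 was at 8.78 in ES cells, 9.79 to 9.86 in normal kidney and 8.84 to 9.33 in kidney tumors.

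None of the 13 subunits encoded in mitochondrial DNA was found by its current symbol. Probe sets annotated under the older names COX2 and ND3, found afterwards by gene identifier, gave a partial view. ND3, a complex I subunit, was at 13.30, 13.24 and 13.33 in normal kidney, 12.82, 12.79 and 12.74 in kidney tumors and 12.57, 12.58 and 12.57 in secondary tumors. It fell by 0.50 ± 0.07 (adjusted p = 9.6e-05) and 0.72 ± 0.07 (adjusted p = 2.3e-06), and by 0.34 ± 0.07 in liver tumor. COX2, a complex IV subunit, fell by 0.30 ± 0.07, 0.32 ± 0.07 and 0.21 ± 0.07 in the same order. Nuclear copies of mitochondrial DNA that these probe sets may also read cannot be told apart from it.

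Many other mitochondrial genes fell as well. Their counts stand beside 28.1%, 38.7% and 30.7% of all genes lower and 21.7%, 29.9% and 21.5% higher in kidney, secondary and liver tumors. Of 15 measured genes of the tricarboxylic acid cycle and pyruvate dehydrogenase, 15 fell in kidney tumor (median -0.93), 15 in secondary tumor (-1.37) and 13 in liver tumor (-0.63), and 0 rose. Dld, the dihydrolipoyl dehydrogenase shared by several complexes, changed by -1.28 ± 0.16 in kidney tumor, and Suclg2, a succinyl-CoA ligase subunit, by -2.48 ± 0.19 in secondary tumor. Assembly factors outside the symbol rule fell in 25, 28 and 27 of 29 cases (medians -0.56, -0.97 and -0.67). Ecsit, an assembly factor of complex I, changed by -1.32 ± 0.11, -1.85 ± 0.11 and -1.29 ± 0.11. Of 9 genes of cytochrome c and complex III outside the rule, 7, 7 and 6 fell and 0, 1 and 0 rose. Cyc1, the cytochrome c1 of complex III, fell by 0.96 ± 0.11 in kidney tumor and by 1.17 ± 0.11 in secondary tumor.

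Mitochondrial ribosomal protein genes, 77 measured, fell in 47, 67 and 60 cases and rose in 2, 0 and 0, with smaller medians of -0.33, -0.56 and -0.50. Of 21 protein import genes, 5, 13 and 10 were lower (23.8%, 61.9% and 47.6%) and 2, 1 and 2 higher (medians -0.13, -0.43 and -0.29), and the kidney tumor share lower was under that of all genes. Among them Timm9, a chaperone of the intermembrane space, fell by 0.98 ± 0.10 in kidney tumor. Of 7 carriers of ADP, phosphate and protons, 3 fell in each tumor group (42.9%, beside 28.1%, 38.7% and 30.7% of all genes) and 0, 1 and 2 rose. The secondary tumor share lower was near that of all genes. Slc25a31, the ADP/ATP carrier of germ cells, rose by 1.86 ± 0.24 in secondary tumor (adjusted p = 1.9e-05), and Slc25a4, the heart and muscle carrier, rose by 1.44 ± 0.33 in liver tumor.

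Of 15 regulators of mitochondrial biogenesis, 7 fell and 4 rose in kidney tumor (46.7% and 26.7%, beside 28.1% and 21.7% of all genes). In secondary tumor 10 fell and 2 rose (66.7% and 13.3%, beside 38.7% and 29.9%), and in liver tumor 9 and 3 (60% and 20%, beside 30.7% and 21.5%). The shares that rose in kidney and liver tumors were near those of all genes. Ppargc1a, the coactivator PGC-1alpha, was at 11.10, 11.30 and 11.22 in normal kidney, 9.92, 9.36 and 8.68 in kidney tumors and 9.01, 9.34 and 9.09 in secondary tumors, all below normal kidney. The change was -1.89 ± 0.43 (limma adjusted p = 0.0027) and -2.06 ± 0.43 (adjusted p = 0.0010). In liver its change of -0.92 ± 0.43 did not pass (adjusted p = 0.089). Ppara, a receptor for fatty acids, changed by -1.69 ± 0.42, -4.58 ± 0.42 and -1.32 ± 0.42, and Esrrg, an orphan nuclear receptor, by -1.70 ± 0.16, -2.11 ± 0.16 and -0.76 ± 0.16. The related coactivator Pprc1 rose instead, by 1.71 ± 0.13, 1.10 ± 0.13 and 1.57 ± 0.13. Chosen after the values were seen because their motifs were searched, Nrf1 rose by 0.83 ± 0.12, 0.74 ± 0.12 and 0.79 ± 0.12, and Yy1 rose by 0.32 ± 0.08 in kidney and liver tumors. In secondary tumor the Yy1 change of 0.11 ± 0.08 did not pass (adjusted p = 0.22). Gabpa, a subunit of GABP, changed by at most 0.12 in either direction and passed in none of the 3. Array levels of these transcripts say nothing about the proteins.

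Copies and neighbours limit what single members show. Many respiratory genes have processed pseudogenes, and a probe set can read both. The 17 members with more than 1 probe set had 25 others, of which 23, 25 and 23 were lower in kidney, secondary and liver tumors. Cox7c and Ndufb4 were read by probe sets with several symbols alone and were left out.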

How the data were processed

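The authors deposited linear intensity values, 1 per probe set and array (Affymetrix, RNA extracted with RNeasy Plus and labelled with the WT Terminal Labeling kit, per the labels' protocols). How they corrected background, summarised probes and normalized is not given in the sources used here. The values ran from 20.7 to 20262, with array medians of 191 to 226, and had no detection p. Here these were log2-transformed and left unscaled. Of 28856 probe sets, 21789 had 1 symbol in the platform annotation of 2016, and the probe set of highest mean was kept per gene. limma 3.58.1 in R 4.3.3 was fitted over all 16 arrays with 1 coefficient per group (10 residual and 2.66 prior degrees of freedom), 2-sided, with Benjamini-Hochberg adjustment over all genes at 0.05, for 7 contrasts. The steps were tested on simulated data. Errors are standard errors of that fit, and 3 arrays per group limit the precision. Alternatives were other normalizations, filters, probe rules, weights, a replicate block and leaving out arrays. Named per complex and contrast were the 2 called members of largest fall, the one of largest rise, members called against their complex, the 2 of largest change between other groups, catalytic subunits and isoform sets throughout, and up to 2 called genes per other list. The members and lists were chosen with earlier results of these data known.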

Additional observations from a re-analysis of the deposited data

Results flagged for a closer look

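Cox6b2 was flagged because its tumor effect differed between the organs in a test of the difference itself. The kidney tumor change of 0.06 minus the liver tumor change of -1.05 gave 1.11 on the log2 scale (SE 0.15, limma adjusted p = 3.5e-04 over 19938 genes). All 3 liver tumor arrays were below all 3 normal liver arrays, and the kidney arrays overlapped. The difference was 1.16 without the 3 arrays with fat signal. Groups of 3 arrays are too small for a test of single outlying arrays.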

How the results depend on the processing

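Over the alternatives run, the members' medians kept their sign in all 7 comparisons. Among single named members, 5197 of 5421 repeated values kept their direction and their side of the threshold, 169 lost the call, 55 gained one and none reversed. The values that moved were these, and the causes were not tested. Counts of members are given without the share of all genes called in the same fit. In the fit of compared groups alone, 2 members were lower in normal kidney against liver and 0 were higher in kidney against liver tumor. Quantile normalization gave medians of -0.88, -0.20 and -0.60 in secondary tumor against normal kidney, secondary against primary tumor and liver tumor, 2 members lower in normal kidney against liver and 2 with a higher kidney effect. Centring gave medians of -0.86, -1.17, -0.31 and -0.77 in the 4 tumor comparisons. Array weights gave -0.95 and -0.19 in the 2 secondary tumor comparisons, 2 lower in normal kidney against liver, 30 higher in kidney against liver tumor, and 1 lower and 2 higher for the difference of effects. Alternatives chosen after seeing the data left out arrays. Without the 3 with fat signal, the secondary tumor medians were -0.93 and -0.21, 14 members were higher in normal kidney than liver and 10 in kidney than liver tumor. The next 2 alternatives keep 1 array of a tumor group, assumed to vary like the other groups, so their counts are weak checks. Without kidney tumors 2 and 3, the kidney tumor median was -0.68, secondary against primary tumor gave -0.29 with 0 higher, and 11 were higher in kidney than liver tumor. Without liver tumors 2 and 3, the liver tumor median was -0.61, kidney against liver tumor gave 0.13 with 1 lower and 7 higher, and the difference of effects had 1 lower and 2 higher. With 1 array left out, the median ran from -0.98 to -0.94 in secondary tumor against normal kidney, from -0.24 to -0.17 against primary tumor and from 0.22 to 0.28 in normal kidney against liver. Members higher ran from 24 to 41 in normal kidney against liver, 8 to 20 in kidney against liver tumor, 0 to 1 in liver tumor and 1 to 3 for the difference of effects, where members lower ran from 0 to 1. The low kidney against liver tumor counts arose without kidney tumor 1, kidney tumor 2 or liver tumor 3.

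On average over the groups, replicate numbers showed no pairing of the arrays, and the labels do not settle it. Deviations of same-numbered arrays correlated at a mean of 0.007 (-0.28 to 0.27), and 7 of 15 arrays matched their own number best. Such an average cannot show whether 2 particular groups were paired. Xist was at 5.60, 10.84 and 10.19 in kidney tumors 1 to 3 and at 5.88, 10.45 and 11.35 in liver tumors 1 to 3. Whether tumors of the same number came from the same animal was not tested. The replicate block gave 81, 81, 35 and 81 members lower in kidney tumor, secondary tumor, secondary against primary tumor and liver tumor, beside 82, 81, 36 and 80 without it. It gave 37 higher in normal kidney against liver and 15 in kidney against liver tumor, beside 40 and 18. The shares of all genes called with the block are not given here.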
